A study of Rattus norvegicus with 18 samples.

Results

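The receptors described here are 10 genes that macrophages use to take up material, to recognise sugars or to receive their growth signal: the lectins Cd209f, Mrc1 and Clec4a1, the scavenger receptors Cd163, Msr1, Marco and Cd68, the hyaluronan receptor Lyve1, the complement receptor Vsig4 and the growth factor receptor Csf1r. They were taken as the probes whose gene name on the array is one of these symbols or its current synonym, which gave 14 of the 41012 gene probes. Cd209f was chosen by its measured signal, for its rise in AIA-cold synovium over control. Its values in those groups, and every comparison that uses the AIA-cold or control arrays, are therefore a description and support nothing. The other receptors were selected on the same data with those results known. RNA of knee synovium from male Lewis rats of 6 to 8 weeks was hybridised to 18 single-colour Agilent rat arrays, 3 in each of 6 groups. AIA-cold-WTD and AIA-hot-WTD rats carried the cold or the hot form of adjuvant-induced arthritis (AIA) and received the herbal formula WTD, AIA-cold and AIA-hot rats carried these forms without it, AIA rats carried the arthritis alone, and control rats carried none. The sample titles mark the WTD arrays with further letters, G, Z and Z in AIA-cold-WTD and D, G and Z in AIA-hot-WTD, which the labels do not explain, so the 3 arrays of a WTD group may not be alike in treatment. The labels do not say how the cold and hot forms were produced, how WTD was given, or whether each array came from a rat of its own. The p-values therefore rest on the spread between these arrays, which may be partly technical.

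Synovial macrophages line the joint cavity and lie in the tissue beneath it, where they clear debris, immune complexes and haemoglobin. Lectins of the CD209 family bind mannose and fucose on microbes and on self glycoproteins through a calcium-dependent sugar-binding domain, and the mannose receptor Mrc1 does so through several such domains. Scavenger receptors bind modified lipoproteins and other polyanions, and VSIG4 together with tissue-resident markers such as LYVE1 marks resident rather than newly recruited macrophages in several tissues. CSF1R receives CSF1 and IL-34, on which most tissue macrophages depend.

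The measurements rest on short oligonucleotides, and the 4 shown here are the ones on which a detected or an undetected signal turned. The Cd209f probe (A_44_P170738) lies at chr12:1658321-1658380 on the minus strand of rn4, the build in the file headers. The brighter Csf1r probe (A_44_P257582) lies at chr18:57105231-57105932 and a second one (A_44_P503932) at chr18:57061458-57061517, both on the plus strand. The Marco probe (A_44_P175833) is placed on unassembled sequence.
Cd209f A_44_P170738: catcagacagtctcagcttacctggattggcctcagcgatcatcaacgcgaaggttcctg
Csf1r A_44_P257582: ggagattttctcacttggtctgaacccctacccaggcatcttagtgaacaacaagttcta
Csf1r A_44_P503932: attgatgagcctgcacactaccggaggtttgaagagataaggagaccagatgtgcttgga
Marco A_44_P175833: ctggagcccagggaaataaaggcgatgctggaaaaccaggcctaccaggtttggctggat
The first Csf1r probe was well above background on 18 of 18 arrays and the second on 0, so the level of Csf1r below is that of the first. The Marco probe was well above background on 1 array, control replicate 1, and Marco was not tested. The other 8 genes besides Cd209f had 1 kept probe each, or 2 for Cd163, Mrc1 and Lyve1, which left 9 genes and 12 probes in the tests.

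RefSeq upstream sequence (GRCr8) was at hand for 9 of the 10 genes, all but Msr1. The core motif of PU.1, the transcription factor that specifies macrophages, was searched as GAGGAA on either strand in the 250 bases before each start. It stood in 5 of the 9 (Mrc1, Clec4a1, Marco, Cd68 and Csf1r), against 23.3% of 33469 promoters of that length. Clec4a1 held the most, with 3 matches, and Cd209f held none. Both are printed with PU.1 core matches in capitals, together with Mrc1, whose 2 matches are spaced further apart. The 3 lectin promoters lie at chr12:7282025-7282274, chr4:157845561-157845810 and chr17:82157475-82157724, all on the plus strand.
Cd209f: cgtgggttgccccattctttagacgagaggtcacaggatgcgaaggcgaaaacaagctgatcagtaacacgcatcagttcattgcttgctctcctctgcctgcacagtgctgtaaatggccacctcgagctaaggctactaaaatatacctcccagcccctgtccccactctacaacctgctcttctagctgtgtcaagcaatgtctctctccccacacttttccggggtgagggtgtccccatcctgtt
Clec4a1: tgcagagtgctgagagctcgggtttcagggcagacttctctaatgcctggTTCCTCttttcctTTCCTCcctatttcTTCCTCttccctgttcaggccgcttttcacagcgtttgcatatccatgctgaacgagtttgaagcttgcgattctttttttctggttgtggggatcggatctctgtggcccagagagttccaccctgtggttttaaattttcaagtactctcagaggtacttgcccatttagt
Mrc1: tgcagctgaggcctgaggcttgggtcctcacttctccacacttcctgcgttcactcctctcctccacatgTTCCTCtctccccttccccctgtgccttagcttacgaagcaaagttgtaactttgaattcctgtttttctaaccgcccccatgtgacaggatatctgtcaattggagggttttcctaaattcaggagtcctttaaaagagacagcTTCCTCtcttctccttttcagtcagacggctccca
The palindromic glucocorticoid response element was in 0 of the 9 windows (0.373% of all promoters), the AP-1 site TGANTCA in 1 (Cd68; 6.34%), the STAT site TTCNNNGAA in 1 (Vsig4; 7.67%) and the C/EBP site TTNNGNAA, read on both strands, in 6 (37.2%). A match is a run of letters, and its absence says only that these letters are not in the window.

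Levels below are log2 of the processed signal minus the 75th percentile of the array, so 0 is the brightness at that percentile, and levels of different probes are not set against each other. A gene was called where limma, fitted on all 18 arrays and 23598 genes, gave an adjusted p (Benjamini-Hochberg over all genes) under 0.05. The arrays of the series were even in brightness apart from 1: the 75th percentile of signal was 68.9 on control replicate 1 and 201.4 to 331.0 on the other 17, and 43.3% of its probes were well above background, against 56.3% to 76.5%. Control replicate 1 also had the lowest value of all 18 arrays for 7 of the 9 tested receptors, and its cartilage markers summed to 3047 times the 75th percentile, against 32.3 and 88.2 on controls 2 and 3. Most differences from control below are therefore also given without it. Because limma pooled the spread over all 18 arrays, that array also enters the SE, p and interval of comparisons that do not use control. The SE of Vsig4, for example, was 0.97 in AIA-cold-WTD against AIA-cold as in AIA against control. Comparisons that do not use control were not recorded without that array, so its part in their uncalled results was not tested. A whole-tissue level cannot tell fewer cells of a type from less RNA per cell.

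Cd209f was the only receptor called in any comparison, in AIA-cold against control, and its level in control synovium was at the limit of what the arrays could measure. It lay at -2.63, -3.84 and -3.12 in AIA-cold-WTD and at -0.72, -1.37 and -2.32 in AIA-cold. In AIA-hot-WTD it lay at -2.33, -3.49 and -2.49, in AIA-hot at -2.04, -2.84 and -3.41, in AIA at -3.54, -3.53 and -3.97, and in control at -4.08, -3.48 and -6.00. All 3 AIA-cold arrays were above every AIA, control and AIA-cold-WTD array, while AIA-cold replicate 3 lay below AIA-hot replicate 1. The probe was well above background on all 12 cold and hot arrays, on 1 of 3 AIA arrays and on 1 of 3 control arrays. These counts are not a measure of level, because the limit differed between arrays. The lowest signal well above background was -4.8 to -5.245 in AIA-cold-WTD and -3.396 to -3.589 in AIA. AIA-cold-WTD replicate 2 thus counted at -3.84, while AIA replicate 1 did not at -3.54. On control replicates 1 and 3 the scanner software had entered a surrogate in place of a signal too dim to measure, 2 of the 3 such values among the 216 of the 12 kept receptor probes. The third was the second Cd163 probe on control replicate 1.

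The difference of Cd209f was 3.05 ± 0.59 between AIA-cold and control (log2, SE, n = 3 each; limma adjusted p = 0.0393). In that comparison 0.534% of all genes were called, 0.242% higher and 0.292% lower, and 1 of the 9 receptors. Since the gene was chosen for this difference, neither the call nor the count adds to it. Its size turned on the 2 surrogates. With each dim signal raised to the lowest signal well above background on its array, a setting added after these surrogates were seen, the difference was 1.55 ± 0.53 (adjusted p = 0.119). Against control replicate 2 alone, the 1 control array with a measured signal, AIA-cold averaged 2.01 higher, with no test. On the same basis AIA-hot averaged 0.71 higher, and AIA averaged 0.21 lower (-0.21). Normexp background correction gave 0.57 (adjusted p = 0.153) for AIA-cold, and the estimate was 3.27 (adjusted p = 0.0695) without control replicate 1. The call also ended without AIA-cold replicate 1 (2.67), AIA-cold replicate 2 (3.00) or control replicate 3 (2.31).

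The other comparisons of Cd209f that use the AIA-cold arrays share the values that chose it. AIA-cold was 2.21 ± 0.59 above AIA (1.98 with dim signals raised) and 1.29 ± 0.59 above AIA-hot, and AIA-cold-WTD was -1.73 ± 0.59 relative to AIA-cold, a pair of groups in which every array was well above background. None of these 3 was called. In the comparisons within AIA-hot, AIA-hot-WTD and AIA the differences themselves are free of those arrays. Their SE, p and interval are not, because the spread was pooled over all arrays, AIA-cold and control included. The probe also entered the tests through the cold and hot groups and not through AIA. AIA-hot differed from AIA by 0.92 ± 0.59 (adjusted p = 0.878) and AIA-hot-WTD from AIA-hot by -0.01 ± 0.59 (adjusted p = 0.999), with a 95% interval of -1.28 to 1.26. The AIA-hot arrays were all above the AIA arrays, but 2 of the AIA arrays were not well above background, and with dim signals raised AIA reached -3.40, above the lowest AIA-hot array. On the slide that held 2 arrays of each, AIA-hot was 1.31 above AIA, and on the slide with 3 AIA-hot-WTD arrays and 1 AIA-hot array the WTD difference was 0.64, opposite in sign to that over all arrays. AIA-hot differed from control by 1.76 ± 0.59 and AIA from control by 0.84 ± 0.59, 2 comparisons that share the control values that chose Cd209f. These differences were 0.26 and -0.43 with dim signals raised, and 1.98 and 1.06 without control replicate 1. With normexp background correction they were -0.04 and -0.20, so both signs turned. The WTD difference in the cold model minus that in the hot model was -1.72 ± 0.84 (adjusted p = 0.988). In order of mean level the groups ran AIA-cold, AIA-hot, AIA-hot-WTD, AIA-cold-WTD, AIA and control, and each neighbouring pair overlapped.

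Of the 6 other probes for CD209 family genes on the array, 3 (Cd209a, Cd209d and one named Cd209b in the files) were well above background on 0 arrays, and none of the rest on more than 6 of 18. Cross-hybridisation of close paralogs to the Cd209f probe was not tested.

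**Figure D1:**
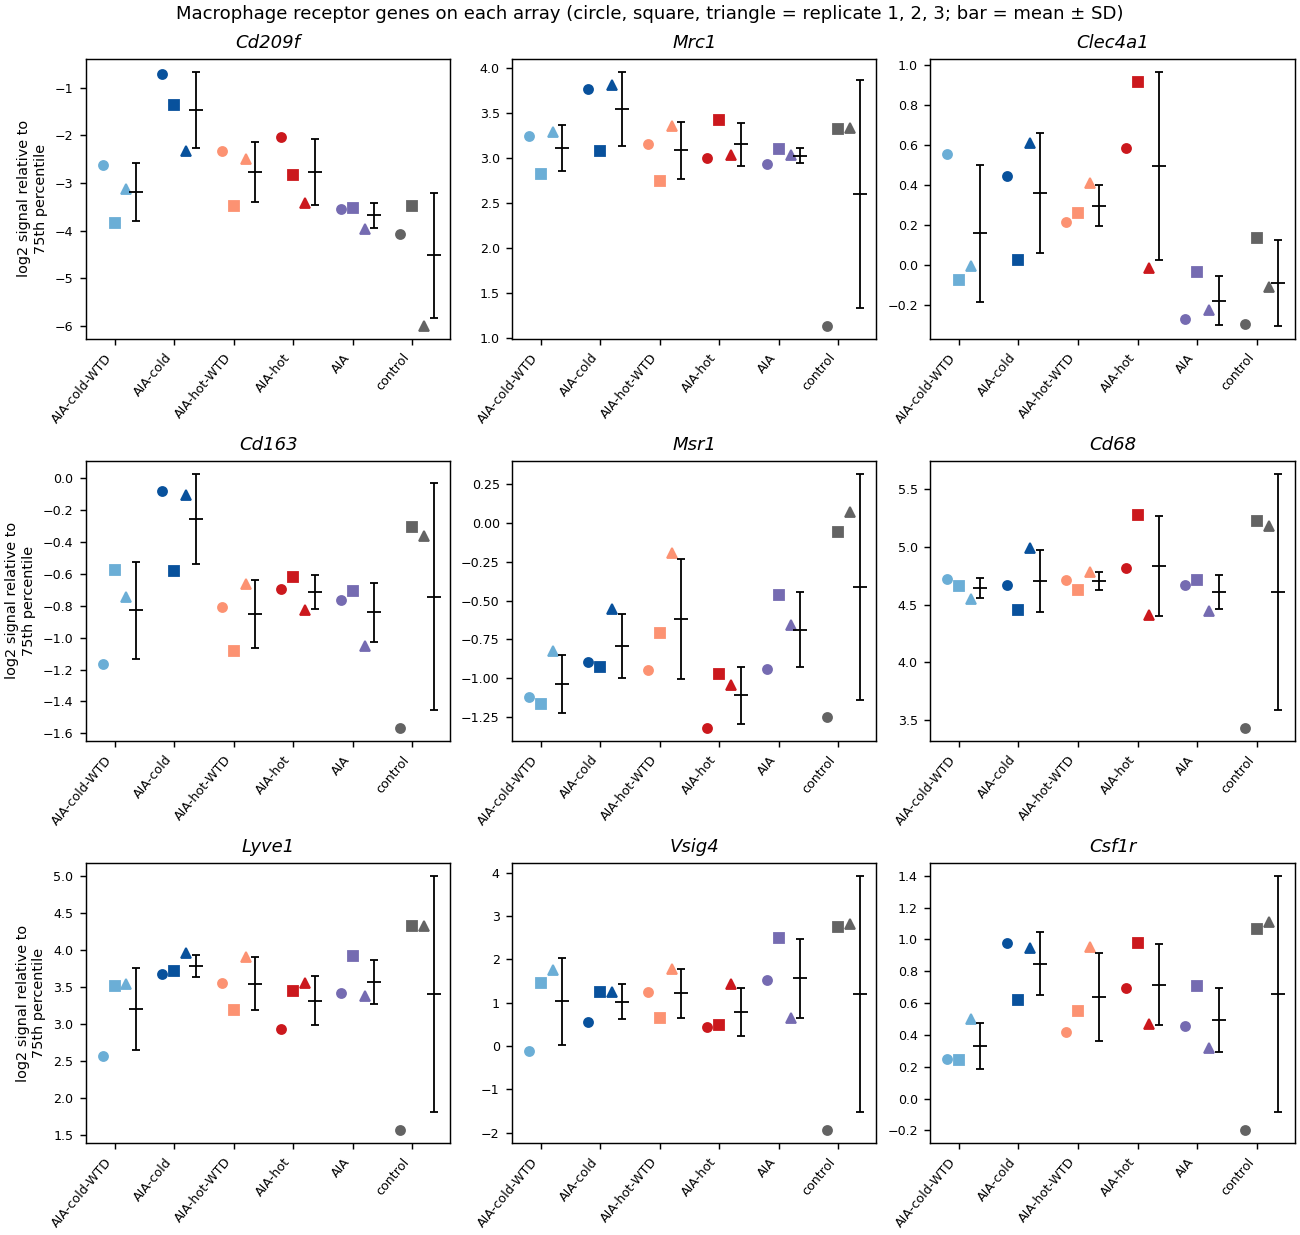
Levels of the 9 tested receptors on each array (y axis, log2 signal relative to the array's 75th percentile; x axis, the 6 groups; circle, square and triangle are replicates 1, 2 and 3, and the black bar is the mean ± SD, n = 3). Cd209f is highest on AIA-cold replicates 1 and 2, and the circle of control replicate 1 is the lowest point for Mrc1, Clec4a1, Cd163, Cd68, Lyve1, Vsig4 and Csf1r.

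Mrc1, the mannose receptor and a marker of alternatively activated and resident macrophages, was bright in all groups. It lay at 3.24, 2.82 and 3.28 in AIA-cold-WTD, 3.76, 3.07 and 3.80 in AIA-cold, 3.16, 2.74 and 3.35 in AIA-hot-WTD, 3.00, 3.42 and 3.03 in AIA-hot, 2.93, 3.10 and 3.03 in AIA, and 1.13, 3.32 and 3.33 in control. The 2 highest arrays were both AIA-cold, and all groups overlapped with their neighbours in the order of means. AIA-cold differed from control by 0.95 ± 0.44 (adjusted p = 0.264), which was 0.22 ± 0.24 without control replicate 1. Its second, dimmer probe gave 0.48. AIA-hot differed from control by 0.55 ± 0.44, and without control replicate 1 by -0.18 ± 0.24, so the sign turned with that array.

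Clec4a1, a C-type lectin of the dendritic cell immunoreceptor group, had its highest mean in AIA-hot and its lowest in AIA, with no difference called. It lay at 0.55, -0.08 and -0.01 in AIA-cold-WTD, 0.44, 0.03 and 0.61 in AIA-cold, 0.22, 0.26 and 0.41 in AIA-hot-WTD, 0.59, 0.91 and -0.01 in AIA-hot, -0.27, -0.04 and -0.23 in AIA, and -0.30, 0.13 and -0.11 in control. All AIA-cold and all AIA-hot arrays were above all AIA arrays, while AIA-cold-WTD overlapped with AIA. The difference from AIA was 0.54 ± 0.23 for AIA-cold (adjusted p = 0.507) and 0.68 ± 0.23 for AIA-hot (adjusted p = 0.878; unadjusted p = 0.0111). On the slide that held 2 arrays of each, AIA-hot was 0.88 above AIA. The difference from control was 0.45 ± 0.23 in AIA-cold and 0.59 ± 0.23 in AIA-hot, or 0.35 and 0.48 without control replicate 1. Across the 18 arrays Clec4a1 followed Cd209f more closely than any other receptor did (Pearson r = 0.56, Spearman rho = 0.79), as a description over arrays that share the groups. Without control replicate 1 its r was 0.53, while Vsig4 ran inversely to Cd209f at -0.53.

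Cd163, the receptor for haemoglobin bound to haptoglobin, had its highest mean in AIA-cold. It lay at -1.17, -0.58 and -0.74 in AIA-cold-WTD, -0.08, -0.58 and -0.10 in AIA-cold, -0.81, -1.09 and -0.66 in AIA-hot-WTD, -0.69, -0.62 and -0.82 in AIA-hot, -0.77, -0.70 and -1.05 in AIA, and -1.57, -0.30 and -0.36 in control. The AIA-cold arrays lay above all AIA and all AIA-hot arrays, and Cd163 was the 1 receptor whose first group in order of means did not overlap with the second. The gap to AIA-hot was narrow, from -0.582 to -0.619. On the second probe AIA-cold went down to -1.86 and overlapped with AIA-hot (up to -1.62) and AIA (up to -1.75). The difference was 0.59 ± 0.28 from AIA (adjusted p = 0.560), 0.46 ± 0.28 from AIA-hot (adjusted p = 0.953) and 0.49 ± 0.28 from control (adjusted p = 0.364), the last being 0.08 ± 0.20 without control replicate 1. The second Cd163 probe gave 0.27 from AIA, 0.30 from AIA-hot and 0.81 from control, the last resting in part on a surrogate on control replicate 1.

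Msr1, the class A scavenger receptor for modified lipoproteins, ran the other way in the hot model. It lay at -1.12, -1.16 and -0.82 in AIA-cold-WTD, -0.90, -0.93 and -0.56 in AIA-cold, -0.95, -0.71 and -0.19 in AIA-hot-WTD, -1.32, -0.97 and -1.04 in AIA-hot, -0.94, -0.46 and -0.66 in AIA, and -1.25, -0.06 and 0.07 in control. All AIA-hot arrays were below all AIA, all AIA-cold and all AIA-hot-WTD arrays, and controls 2 and 3 were the highest of the series. AIA-hot differed by -0.42 ± 0.29 from AIA (adjusted p = 0.878) and by -0.70 ± 0.29 from control (adjusted p = 0.365). Without control replicate 1 the differences from control were -1.12 ± 0.22 for AIA-hot (adjusted p = 0.102), -0.80 ± 0.22 for AIA-cold (adjusted p = 0.122) and -0.69 ± 0.22 for AIA (adjusted p = 0.903). AIA-hot-WTD was 0.49 ± 0.29 relative to AIA-hot (adjusted p = 0.999), the 1 receptor whose arrays did not overlap there, and 0.43 within the slide that held both. Within a slide AIA-hot differed from AIA by -0.58.

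Cd68, a lysosomal glycoprotein used as a general macrophage marker, had group means from 4.609 (AIA) to 4.835 (AIA-hot) outside control. Single arrays varied more, with an SD of 0.435 in AIA-hot. It lay between 4.55 and 4.72 in AIA-cold-WTD, 4.46 and 4.99 in AIA-cold, 4.63 and 4.78 in AIA-hot-WTD, 4.41 and 5.28 in AIA-hot and 4.44 and 4.71 in AIA, and at 3.43, 5.22 and 5.18 in control. Its difference from control was 0.10 ± 0.36 in AIA-cold, 0.22 ± 0.36 in AIA-hot and -0.00 ± 0.36 in AIA. Without control replicate 1 they were -0.49, -0.37 and -0.59, so the sign turned in AIA-cold and AIA-hot, and none was called. Marco, the scavenger receptor of marginal zone and alveolar macrophages, lay between -7.57 and -3.76 on every array but control replicate 1, where it read -1.38.

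Lyve1, the hyaluronan receptor of lymphatic endothelium and of perivascular macrophages, and Vsig4, the receptor for complement C3b on resident macrophages, moved together over the arrays (r = 0.93, 0.85 without control replicate 1, n = 18 and 17). Lyve1 lay at 2.56, 3.51 and 3.53 in AIA-cold-WTD, 3.67, 3.72 and 3.96 in AIA-cold, 3.55, 3.19 and 3.90 in AIA-hot-WTD, 2.94, 3.45 and 3.56 in AIA-hot, 3.42, 3.91 and 3.37 in AIA, and 1.57, 4.32 and 4.33 in control. Vsig4 lay at -0.12, 1.45 and 1.75 in AIA-cold-WTD, 0.56, 1.25 and 1.26 in AIA-cold, 1.24, 0.65 and 1.78 in AIA-hot-WTD, 0.44, 0.48 and 1.43 in AIA-hot, 1.53, 2.50 and 0.66 in AIA, and -1.94, 2.75 and 2.81 in control. For both genes controls 2 and 3 were the highest arrays of the 18 and control replicate 1 the lowest.

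The size and sign of their differences from control depended on that 1 array. With all 3 controls, Vsig4 differed by -0.19 ± 0.97 in AIA-cold, -0.42 ± 0.97 in AIA-hot and 0.35 ± 0.97 in AIA. Without control replicate 1 it differed by -1.76 ± 0.58 (adjusted p = 0.189), -1.99 ± 0.58 (adjusted p = 0.258) and -1.22 ± 0.58 in these groups. Lyve1 differed by 0.38 ± 0.55 in AIA-cold, -0.09 ± 0.55 in AIA-hot and 0.16 ± 0.55 in AIA with all controls, and by -0.54 ± 0.30, -1.01 ± 0.30 (adjusted p = 0.258) and -0.76 ± 0.30 without it. Neither gene was called either way. Of 6 lymphatic endothelial markers 5 were tested and 0 called. Their summed signal was 5.87 to 12.9 in AIA-cold-WTD, 7.40 to 10.8 in AIA-cold, 5.21 to 9.68 in AIA-hot-WTD, 7.39 to 14.9 in AIA-hot, 7.14 to 7.84 in AIA and 6.11 to 11.1 in control. The defining marker Prox1 was well above background on 0 arrays, and the part of lymphatic endothelium in the Lyve1 values was not tested.

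Csf1r lay at 0.25, 0.24 and 0.50 in AIA-cold-WTD, 0.98, 0.62 and 0.95 in AIA-cold, 0.42, 0.55 and 0.95 in AIA-hot-WTD, 0.69, 0.98 and 0.47 in AIA-hot, 0.46, 0.71 and 0.32 in AIA, and -0.20, 1.06 and 1.11 in control. All AIA-cold-WTD arrays were below all AIA-cold arrays. That difference was -0.52 ± 0.28 (adjusted p = 0.909), and the difference of AIA-cold from control was 0.19 ± 0.28, or -0.24 ± 0.19 without control replicate 1. Csf1, its ligand, differed by -0.10 ± 0.27 between AIA-cold and control (-0.44 without control replicate 1) and by -0.19 ± 0.27 between AIA-cold-WTD and AIA-cold.

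**Figure D2:**
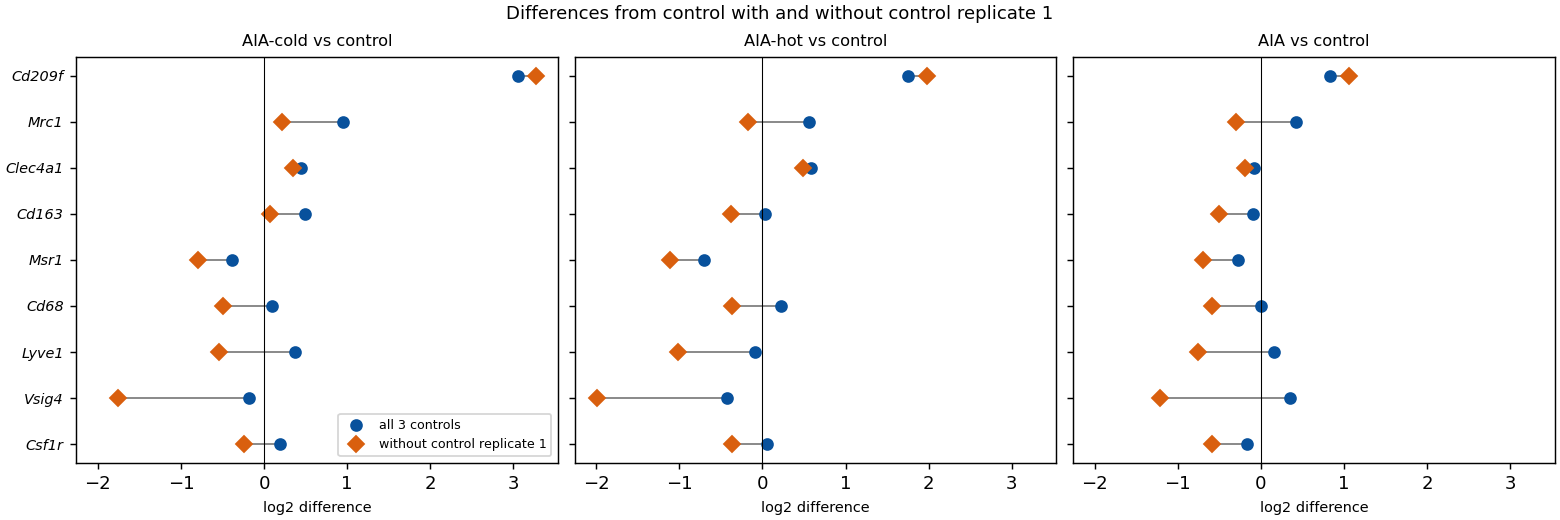
Differences of AIA-cold, AIA-hot and AIA from control for the 9 receptors (x axis, log2 difference), with all 3 controls (circles) and without control replicate 1 (diamonds). Leaving out that array puts Vsig4 at -1.76 in AIA-cold, in place of -0.19, and moves 8 receptors left, while Cd209f moves right.

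As a group the 9 tested receptors were called once. In AIA-cold against control 2 of them, Cd209f and Mrc1, had an unadjusted p under 0.05 in limma, as had 18.7% of all genes. Setting aside Cd209f left 1 of 8. In AIA-hot against control, where 0.0551% of all genes were called, none passed in limma. There 3 had an unadjusted p under 0.05 (Cd209f, Clec4a1 and Msr1), against 12.1% of all genes. Cd209f was chosen in part on these control values, and setting it aside left 2 of 8. By direction 0.0127% of genes were called higher and 0.0424% lower there. The arrays of Cd209f did not overlap in AIA-cold or in AIA-hot against control, where 24.9% (10.8% higher, 14.1% lower) and 13.1% (5.02% higher, 8.06% lower) of all genes did not, and no other receptor was so separated. With dim signals raised, Cd209f on control replicate 1 was set to -1.86, above AIA-cold replicate 3 and all AIA-hot arrays. That value is the floor of a dim array and not a measured signal, so it cannot decide whether the groups overlap. Controls 2 and 3, at -3.48 and at a floor of -3.72, stayed below all AIA-cold and AIA-hot arrays. In AIA against control, where 0.0% of genes were called, none passed in limma, 0 had an unadjusted p under 0.05, and all receptors overlapped, while 10.6% of genes did not (5.31% higher, 5.34% lower). Their median difference was 0.38 in AIA-cold, 0.06 in AIA-hot and -0.00 in AIA, against -0.04, -0.05 and -0.03 over all genes. Without control replicate 1 the medians were -0.24, -0.37 and -0.59, with 5, 7 and 8 of 9 receptors below 0.

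Between the arthritis groups no receptor was called. Against AIA, 7 of 9 were higher in AIA-cold with a median of 0.36 (-0.01 over all genes), or 6 of 8 with 0.28 when Cd209f is set aside, and none was called where 0.0% of genes were. The arrays of 3 (Cd209f, Clec4a1 and Cd163) did not overlap and were higher, where 10.7% of all genes did so (24.2% in either direction, 13.5% lower). Setting aside Cd209f left 2 of 8, and the second Cd163 probe did overlap. Against AIA-hot, 7 of 9 were higher in AIA-cold with a median of 0.32 (0.01 over all genes), or 6 of 8 with 0.28 without Cd209f. None was called where 0.00848% of genes were. The arrays of 3 (Cd163, Lyve1 and Msr1) did not overlap and were higher, against 8.26% of all genes (15.0% in either direction, 6.78% lower). The second Cd163 probe overlapped here too. AIA-hot against AIA gave a median of 0.13 with none called, where 0.0% of genes were. There 2 receptors lay above (Cd209f and Clec4a1) and 1 below (Msr1) without overlap (Cd209f no longer with dim signals raised), as did 4.07% and 5.84% of all genes (9.91% together). In AIA-cold, Cd209f and Clec4a1 had an unadjusted p under 0.05 in limma against AIA (9.04% of all genes), and Cd209f alone against AIA-hot (5.48%). Setting aside Cd209f, the gene chosen on the AIA-cold values, left 1 of 8 and 0 of 8. In AIA-hot against AIA, Clec4a1 alone had such a p (5.13%). All cold arrays lay on slides that held no array of control, AIA or AIA-hot, so in the comparisons of AIA-cold with those groups slide and group cannot be told apart. AIA-hot and control shared no slide either, and only AIA arrays lay on slides with each of them.

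With WTD most receptors of the cold model had lower means, none past the test. In AIA-cold-WTD against AIA-cold, 8 of 9 were below 0 with a median of -0.43 (0.01 over all genes), and Vsig4 was at 0.01 ± 0.97. None was called, where 0.00848% of all genes were, and 1 had an unadjusted p under 0.05, Cd209f, the gene chosen on the AIA-cold values, against 6.09% of all genes. Of the other 8 receptors 7 were below 0, with a median of -0.34. The arrays of 3, Cd209f, Csf1r and Lyve1, were lower without overlap, where 6.7% of all genes were lower and 7.68% higher (14.4% together). Setting aside Cd209f left 2 of 8. AIA-cold-WTD replicate 1, the array lettered G, stood apart from replicates 2 and 3: its T cell markers summed to 8.77, against 1.21 and 1.49, and its adipocyte markers to 581, against 1008 and 936. Lyve1 differed by -0.58 ± 0.55, with -0.60 on its second probe, but by -0.26 without that array, while Cd209f differed by -2.01, Csf1r by -0.48 and Vsig4 by 0.58 without it. Cd163 differed by -0.57 ± 0.28 (adjusted p = 0.857), with -0.57 on its second probe, or by -0.40 without that array. That array was also the only AIA-cold-WTD array on the slide of the 3 AIA-cold arrays, where the differences were -1.16 for Cd209f, -0.91 for Cd163, -0.60 for Csf1r, -1.22 for Lyve1, -1.14 for Vsig4, -0.33 for Msr1, -0.31 for Mrc1, 0.01 for Cd68 and 0.19 for Clec4a1. In AIA-hot-WTD against AIA-hot, 6 of 9 were below 0 with a median of -0.06 (-0.01 over all genes), none was called in limma where 0.0% of genes were, and 0 had an unadjusted p under 0.05. Msr1 alone did not overlap and was higher, as were 2.64% of all genes (4.43% lower, 7.07% together). The difference of these 2 WTD differences, cold minus hot, had a median of -0.43, with none called where 0.0% of genes were. Its 95% interval held 0 for each of the 9.

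**Figure D3:**
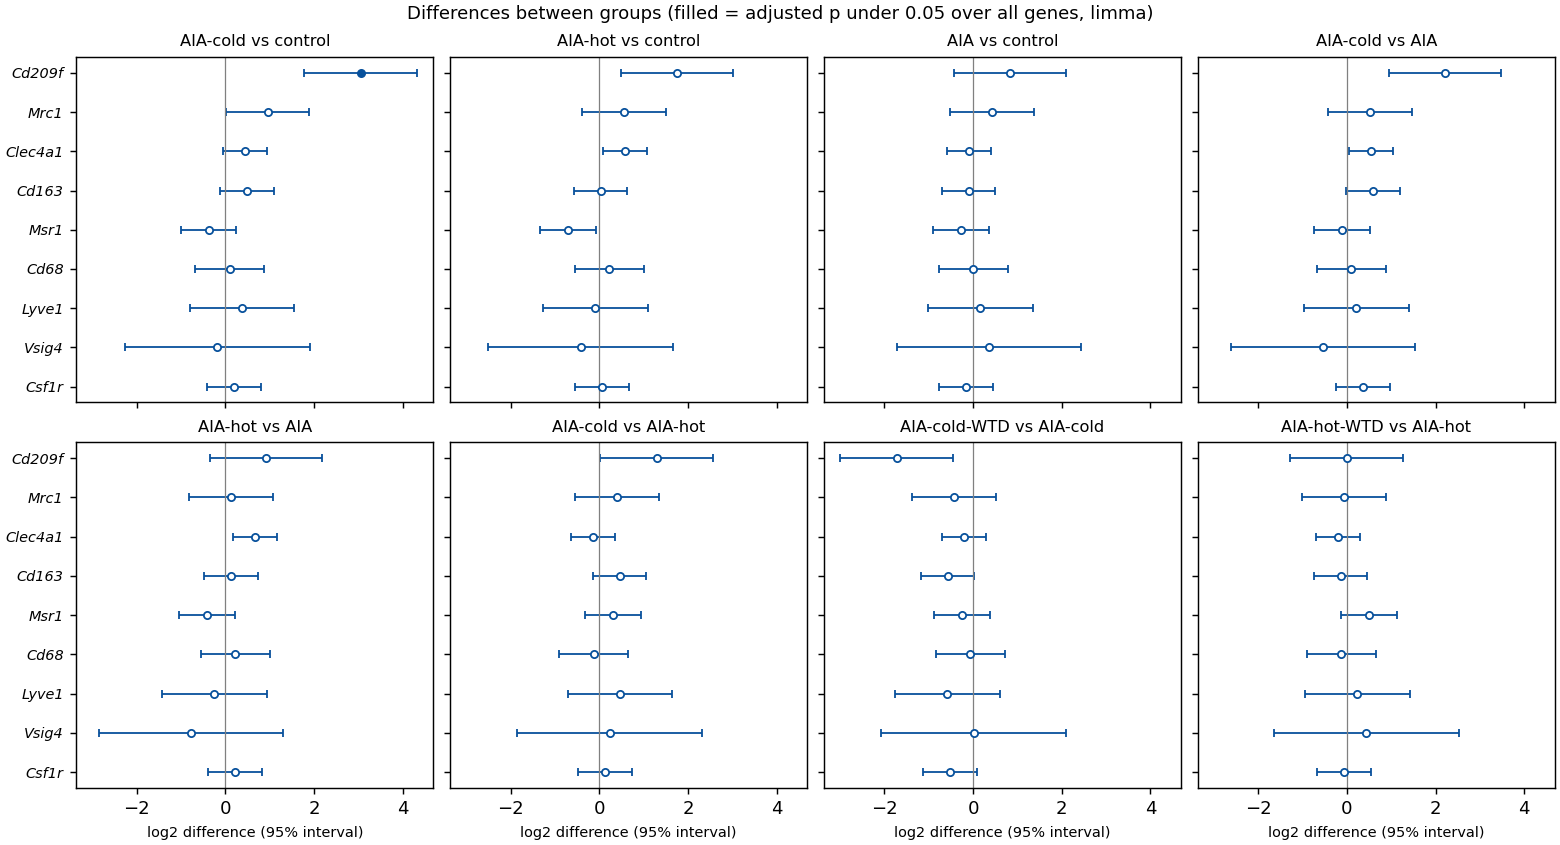
Differences of the 9 receptors in 8 comparisons (x axis, log2 difference of the first group minus the second; bars, 95% interval from limma; filled, adjusted p under 0.05 over all genes). Cd209f in AIA-cold against control is the 1 filled point, and the interval of Vsig4 spans over 4 log2 units in every comparison. The intervals rest on a spread pooled over all arrays, control replicate 1 included.

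Other genes of macrophages showed the same dependence on control replicate 1. Of 29 listed identity genes 28 were tested and 0 called in any comparison. In AIA-cold against control 24 of 28 were above 0 with a median of 0.37, and without control replicate 1 only 9 were, with a median of -0.11. Adgre1, the F4/80 antigen, differed by 0.90 ± 0.38 (adjusted p = 0.222), Itgam, an integrin chain of myeloid cells, by 0.70 ± 0.46, Ccr2, the chemokine receptor of recruited monocytes, by 0.67 ± 0.39, and Fcgr1a, the high-affinity IgG receptor, by 0.50 ± 0.38. With that control left out, Adgre1 differed by 0.27, Itgam by -0.08, Ccr2 by 0.37 and Fcgr1a by -0.10. Aif1, an actin-binding protein of macrophages, differed by 0.44 ± 0.45, C1qa, a complement C1q chain, by 0.37 ± 0.37, Folr2, the folate receptor of resident macrophages, by 0.14 ± 0.37, and Cd14, the lipopolysaccharide co-receptor, by -0.17 ± 0.39. Without that array Aif1 differed by -0.34, C1qa by -0.21, Folr2 by -0.50 and Cd14 by -0.80. In AIA-cold-WTD against AIA-cold 22 of 28 were below 0 with a median of -0.23. The arrays of 6 of the 28 were lower without overlap, as were those of 6.7% of all genes (14.4% in either direction). Among them were Adgre1 (-0.70 ± 0.38), Aif1 (-0.40 ± 0.45) and Folr2 (-0.39 ± 0.37), and none was called.

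The other C-type lectins and galectins had 10 of 27 members tested and 0 called. Clec10a, the galactose-binding lectin of macrophages and dendritic cells, differed by 1.65 ± 0.46 in AIA-cold against control (limma adjusted p = 0.0936), with arrays that did not overlap. There 2 of the 10 were higher without overlap, as were 10.8% of all genes (24.9% in either direction). Clec10a differed by 0.99 ± 0.34 (limma adjusted p = 0.205) without control replicate 1, and by -0.67 ± 0.46 in AIA-cold-WTD against AIA-cold. The sialic acid receptor Siglec1 differed by 0.39 ± 0.57 and -0.55 ± 0.57 in these comparisons, the first being 0.00 without control replicate 1. Of 20 other scavenger and efferocytosis receptors 14 were tested and 0 called, with medians of -0.09 and -0.03 (the first -0.13 without control replicate 1). Mertk, which recognises dying cells through bridging proteins, differed by 0.20 ± 0.19 between AIA-cold and control, Timd4, a phosphatidylserine receptor of resident macrophages, by -0.54 ± 0.24, and Trem2, a lipid-sensing receptor, by -0.22 ± 0.39. Leaving out control replicate 1 gave 0.34, -0.81 and -0.90 (adjusted p = 0.0599).

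Among the pathway lists the haemoglobin and iron genes had 10 of 10 tested and 0 called. Their median was 0.20 in AIA-cold against control, with Hmox1, the haem-degrading enzyme, at 0.48 ± 0.43. Leaving out control replicate 1 put the median at -0.19 and Hmox1 at -0.15. The hyaluronan genes had 6 of 9 tested and 0 called, with a median of -0.43 (-0.54 without control replicate 1). Alternative activation genes had 6 of 10 tested and 0 called, with a median of 0.27 (0.40 without it). Of the classical activation genes 6 of 11 were tested and 1 was called, Il1b, a proinflammatory cytokine, in AIA-hot against control (2.11 ± 0.32; adjusted p = 0.0343). The call was lost with slide as a random block (adjusted p = 0.118 with an estimated correlation) and in 10 of 18 alternatives in all, among them leaving out control replicate 1 (1.92, adjusted p = 0.0918), control replicate 3, AIA-hot replicate 1 or AIA-hot replicate 2. Its difference lay between 1.24 and 2.34 over them, with adjusted p from 0.000166 to 0.860. The growth factors had 2 of 7 tested and 0 called.

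**Figure D4:**
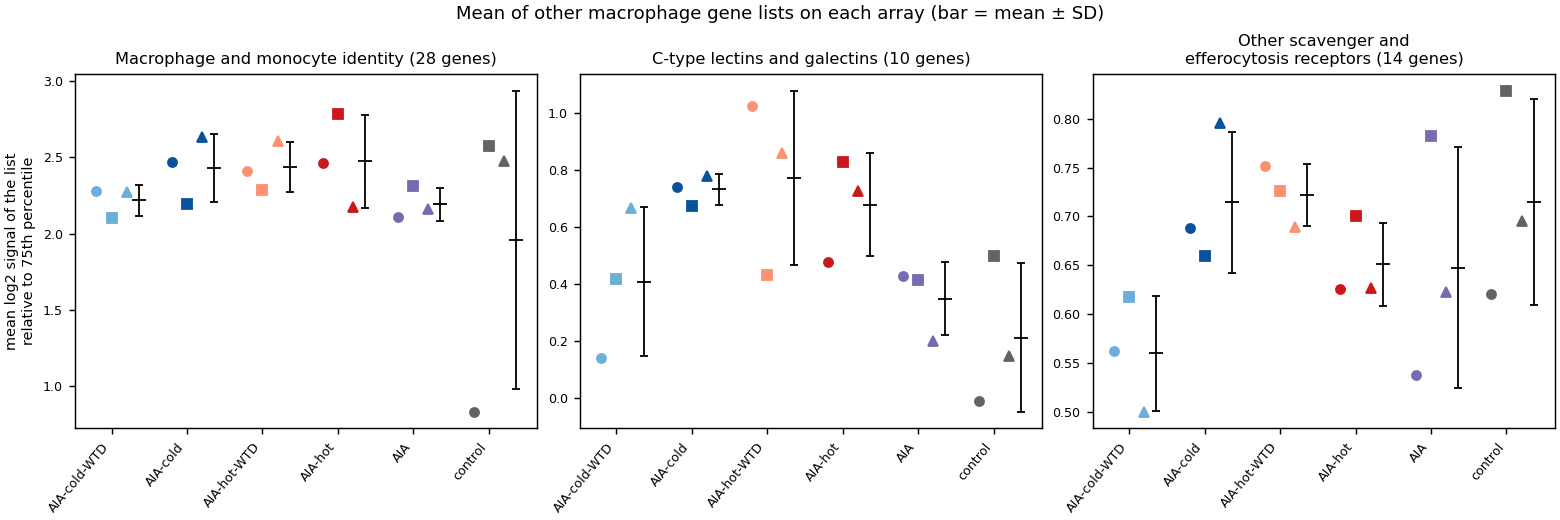
Mean level of 3 other macrophage gene lists on each array (y axis, mean log2 signal relative to the 75th percentile; x axis, the 6 groups; bar, mean ± SD, n = 3). Macrophage identity genes average 0.83 on control replicate 1 and 2.10 or more on every other array.

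Markers of other cell types were uneven over the same arrays, and their part in the receptor values was not tested. In AIA-cold against control the median difference was 2.27 for the 5 tested erythroid markers, 1.82 for the neutrophil, 0.77 for the mast cell and 0.72 for the adipocyte markers, and -0.78 for the cartilage, -0.69 for the skeletal muscle, -0.43 for the synovial fibroblast and -0.39 for the blood endothelial markers, with none called in limma. Without control replicate 1 the medians were 2.35 for erythroid, 2.38 for neutrophil, 0.41 for mast cell and 0.19 for adipocyte markers. They were 1.02 for cartilage, -1.12 for skeletal muscle, -0.44 for synovial fibroblast and -0.03 for blood endothelial markers. Of 11 neutrophil markers 7 were tested and 0 called, and their summed signal was 9.99, 89.4 and 237 times the 75th percentile in AIA-cold-WTD, 8.81 to 49.9 in AIA-cold, 26.8 to 242 in AIA-hot-WTD, 11.0 to 24.6 in AIA-hot, 5.16 to 38.5 in AIA and 3.20 to 6.08 in control. Adipocyte markers, 7 of 7 tested, summed to 581 to 1008 in AIA-cold-WTD, 1010 to 1660 in AIA-cold and 612 to 1264 in control. Dendritic cell markers, 4 of 8 tested, summed to 2.26 to 4.00, 2.63 to 3.95 and 1.66 to 4.23 in these groups, with the defining genes Xcr1 and Siglech well above background on 0 arrays. The synovial fibroblast markers, 8 of 8 tested, were well above background on all 18 arrays.

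Over 11908 named genes, those most like Cd209f across the 18 arrays were Tgm1 (Pearson r = 0.892), C1qtnf1 (0.827), Pabpc4 (0.789), Plpp1 (0.779) and Nepro (0.771). Those most like the mean of the other 8 receptors were Folr2 (0.967), Fcgr2a (0.962), Lgmn (0.959), Arl11 (0.959) and Aif1 (0.939), which were 0.856 to 0.927 without control replicate 1. The arrays share groups. Apart from Clec4a1 (r = 0.56), the r of Cd209f with Mrc1, Cd163, Msr1, Cd68, Lyve1, Vsig4 or Csf1r lay between -0.38 and 0.36. Without control replicate 1 these lay between -0.53 (Vsig4) and 0.35 (Mrc1), with Msr1 at -0.48 and Clec4a1 at 0.53. The values of Cd209f on control replicates 1 and 3 are surrogates.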

How the data were processed

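The deposited scanner files give a spot's fluorescence intensity. The submitters' processing notes name Feature Extraction 10.7 and limma. Background subtraction and detrending within an array made the processed signal, per the file headers, and unmeasurably dim spots carry a surrogate value; arrays were not yet scaled to each other. The authors' deposited series table, taken as log2 values (r = 0.989 to 1 with the log2 processed signal), served only as an alternative; its scale is not given in the sources used here.

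Outlier spots were dropped, spots of a probe averaged, and log2 signals set relative to the array's 75th percentile. A probe entered (28259 did) when some group had it well above background on its 3 arrays, and the brightest stood for its gene (23598 genes, 12038 with a symbol). Probe names were updated through RefSeq by accession (18028 probes), symbol (3168) or synonym (400). limma 3.58.1 in R 4.3.3 was fitted to all arrays at once with 9 contrasts (12 residual and 2.29 prior degrees of freedom) and was tested on simulated data. Arrays give no read depth, and 3 per group limit the precision. Groups came from the labels. Named genes were the receptors, called members of the other lists (at most 4 per contrast), genes of a short macrophage list (Il34, Stab1 and Cd209a of it could not be tested), and the 5 genes most like each of 2 patterns. The receptors and lists were chosen with earlier results of these data known.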

Additional observations from a re-analysis of the deposited data

How the results depend on the processing

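The 1 receptor called in AIA-cold against control, Cd209f (3.05), became 0 with normexp background correction (0.57), with only probes well above background on all arrays (6 receptors tested, without Cd209f), with slide as a random block (3.00), with only the groups compared (3.05; a smaller fit) and with dim signals raised to the floor (1.55; added after seeing the data); the causes were not tested. Leaving out each array was recorded only for the comparisons that use its group. It gave 0 or 1 calls in AIA-cold against control (0 without AIA-cold replicate 1 or 2 or control replicate 1 or 3) and 0 in the other comparisons. Array weights, from 0.0874 on control replicate 1 to 5.15 on AIA-cold-WTD replicate 2, called 5 receptors in AIA-cold against control, 5 in AIA-hot against control, 2 in AIA-cold against AIA, 1 against AIA-hot and 4 in AIA-cold-WTD against AIA-cold, where 26.4%, 17.3%, 4.90%, 16.4% and 18.1% of all genes were called; Cd68 in AIA-cold against control reversed to -0.51. Quantile normalization, median centring, the authors' table, no filter, the mean of probes and each probe by itself kept the counts of receptors called. Of 1539 receptor differences under an alternative, 108 changed sign with neither value called. The median of all genes in AIA-cold, AIA-hot and AIA against control was -0.21, -0.19 and -0.14 with normexp, -0.24, -0.21 and -0.14 with no filter, and 0.18, 0.15 and 0.15 with median centring. With slide as a fixed block, AIA-cold could not be compared with AIA, AIA-hot or control. No paired analysis was possible because the labels give no replicate numbers that join arrays of different groups.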
